A study of Homo sapiens with 15 samples.

Results

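The clustered protocadherins were examined in ATAC-seq peak lists of RPTEC, an hTERT-immortalised line of human renal proximal tubule epithelial cells. They were chosen by name, as all protein-coding genes of GENCODE v44 whose symbols start with PCDHA, PCDHB or PCDHG, which gave 53 of 20033 protein-coding genes. Of these, 15 belong to the alpha cluster (chr5:140786136-141012347), 16 to the beta cluster (chr5:141051374-141249365) and 22 to the gamma cluster (chr5:141330514-141512977), all in hg38 and with every gene on the plus strand. There were 15 libraries, 3 in each of 5 groups. WT cells carried intact SETD2, the enzyme that places trimethylation on lysine 36 of histone H3. KO1 and KO2 were lines grown from single cells after CRISPR-Cas9 editing with a guide in exon 3 of SETD2. Rescue1 and Rescue2 were single colonies of knockout cells that carried a lentiviral, FLAG-tagged, full-length SETD2 and were selected with blasticidin, and the study's library names place both in the lineage of KO2. All groups were grown with G418 to keep hTERT. WT was not described as a clone, so loss of SETD2 and isolation of a clone cannot be told apart. The labels do not say that the 3 libraries of a group came from separate cultures, so p-values measure the spread between these libraries, which may be technical. Where KO1 and KO2, or Rescue1 and Rescue2, are pooled, each library counts as a separate unit. Such p-values do not measure the spread between clones.

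Clustered protocadherins are cell-surface adhesion proteins best known from neurons, where each cell uses its own small set of isoforms and so distinguishes itself from its neighbours. In the alpha and gamma clusters each variable exon has its own promoter and is spliced to constant exons shared by the cluster, while each beta gene is a single exon. Most variable promoters hold a conserved sequence element with the core CGCT, and CTCF and cohesin loop chosen promoters to distant enhancers. The C-type genes at the end of the alpha and gamma clusters are used more steadily than the others.

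A promoter here is the stretch within 1 kb of a gene's start on either side, and it has a peak in a library if at least 1 bp lies under a peak called in that library. Bases under peaks are the number of base pairs so covered. They do not measure peak height, and a promoter with no peak lay below the calling threshold, which is not the same as closed. The lists contain no read counts, so read depth is unknown. They held from 197527 to 266011 peaks per library. A peak was found at the promoters of 14543 to 15005 of all genes. The SETD2 promoter had peaks in every library, over 925 to 1590 bp, and since the edit lies elsewhere this does not check the labels. Of 16 renal tubule markers 10 had a promoter peak in all libraries, among them PAX8, PAX2, EPCAM and CDH16. Proximal tubule genes were mixed. CUBN, HNF4A and AQP1 had no peak in any library, while ANPEP had one in all. LRP2 had one in 2 of 3 WT libraries and in every KO and rescue library.

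Promoter sequences of 47 of the 53 genes were found in RefSeq (GRCh38.p14, 250 bases before to 50 after the start). The letters CGCT, searched on both strands, occurred in 46 of the 47, or 97.9%, against 70.0% of 35116 promoters. The longer GGCGCT, which contains CGCT, occurred in 13 of 14 beta promoters, in 8 of 20 gamma promoters and in 1 of 13 alpha promoters, against 21.7% of all promoters. The longest run shared by the promoters of PCDHGA2, PCDHGB2 and PCDHGA6 had 13 bases. Of 35116 promoters, the 3 that held it were these same promoters, from which it was taken. These promoters were set side by side after their peaks were seen. With up to 2 mismatches, 11 gamma promoters held the run, against 0.544% of all promoters. The windows are shown because promoters with peaks in all, some and no libraries hold the run or a near match to it. Capitals mark CGCT on either strand.

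PCDHGA2: AGCGtCGCTgttg
PCDHGB2: AGCGtCGCTgttg
PCDHGA6: AGCGtCGCTgttg
PCDHGA9: AGCGcCGCTgttg
PCDHGA3: agtgtCGCTgttg
PCDHGA5: agtgtCGCTgttg
PCDHGA7: AGCGcCGCTgttc
PCDHGA8: AGCGcCGCTgttc
PCDHGA10: AGCGcCGCTgttc
PCDHGB4: ggcgcCGCTgttg
PCDHGB5: ggcgcCGCTgttg

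PCDHGA10 and PCDHGB5 had a promoter peak in all 15 libraries. PCDHGA3, PCDHGA5 and PCDHGA7 had none in any. These 5 held the run with 1 or 2 mismatches, while the 3 promoters with the exact run had peaks in some libraries. The window began 44 to 82 bases before the RefSeq start except at PCDHGB2, where it began 204 bases before it. The RefSeq start of PCDHGB2 lies 142 bases from the GENCODE start used for its peaks.

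The whole promoters of PCDHGA2 and PCDHGA6 are shown because their peaks were found in every WT library and in no KO1 library. Those of PCDHGB6 and PCDHGB7 are shown because they are alike while their peaks were not. They had 71.4% identical columns in a global alignment and shared a run of 38 bases. How reads that match both places were mapped and filtered is not given in the sources used here, so reads at these 2 promoters are uncertain. All are on the plus strand of GRCh38.p14, at chr5:141338510-141338809, chr5:141373641-141373940, chr5:141407771-141408070 and chr5:141417427-141417726 in this order. Capitals again mark CGCT on either strand, found 4, 2, 3 and 2 times.

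PCDHGA2: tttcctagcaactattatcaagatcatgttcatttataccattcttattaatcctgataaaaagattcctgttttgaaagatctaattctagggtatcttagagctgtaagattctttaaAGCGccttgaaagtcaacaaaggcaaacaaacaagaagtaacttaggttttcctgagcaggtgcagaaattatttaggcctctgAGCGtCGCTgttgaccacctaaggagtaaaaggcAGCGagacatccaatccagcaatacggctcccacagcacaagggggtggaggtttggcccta
PCDHGA6: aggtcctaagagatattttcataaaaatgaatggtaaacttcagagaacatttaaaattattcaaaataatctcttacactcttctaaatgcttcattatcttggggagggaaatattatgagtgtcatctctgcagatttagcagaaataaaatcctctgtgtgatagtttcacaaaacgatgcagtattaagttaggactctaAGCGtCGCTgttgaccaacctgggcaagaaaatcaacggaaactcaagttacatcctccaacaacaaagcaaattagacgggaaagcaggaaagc
PCDHGB6: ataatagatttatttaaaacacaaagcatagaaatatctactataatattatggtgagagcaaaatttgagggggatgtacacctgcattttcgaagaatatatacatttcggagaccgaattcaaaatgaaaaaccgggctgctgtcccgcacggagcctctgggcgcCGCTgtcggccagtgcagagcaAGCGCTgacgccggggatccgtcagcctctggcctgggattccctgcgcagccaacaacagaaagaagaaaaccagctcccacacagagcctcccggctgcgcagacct
PCDHGB7: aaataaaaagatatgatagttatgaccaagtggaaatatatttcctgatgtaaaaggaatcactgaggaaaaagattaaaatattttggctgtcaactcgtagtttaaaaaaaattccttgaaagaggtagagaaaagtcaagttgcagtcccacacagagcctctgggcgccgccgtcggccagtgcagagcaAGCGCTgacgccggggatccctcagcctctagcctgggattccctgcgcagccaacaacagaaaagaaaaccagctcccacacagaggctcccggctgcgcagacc

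All members matched had a median GC content of 39.7%, and all promoters in the table one of 58.7%. The median was 45.3% in the 17 matched members with a peak in all libraries, 37.7% in the 13 with a peak in some and 38.0% in the 17 with none.

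Over the 15 libraries, 19 of the 53 promoters had a peak in all libraries, or 35.8%, against 68.4% of all genes. A peak in none was found for 20 promoters, or 37.7%, against 20.2% of all genes. The remaining 14, or 26.4%, had a peak in some libraries, against 11.4% of all genes. These shares are a description, with no test. By cluster, all libraries had a peak at 3 alpha, 7 beta and 9 gamma promoters. No library had one at 11 alpha, 4 beta and 5 gamma promoters.

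**Figure D1:**
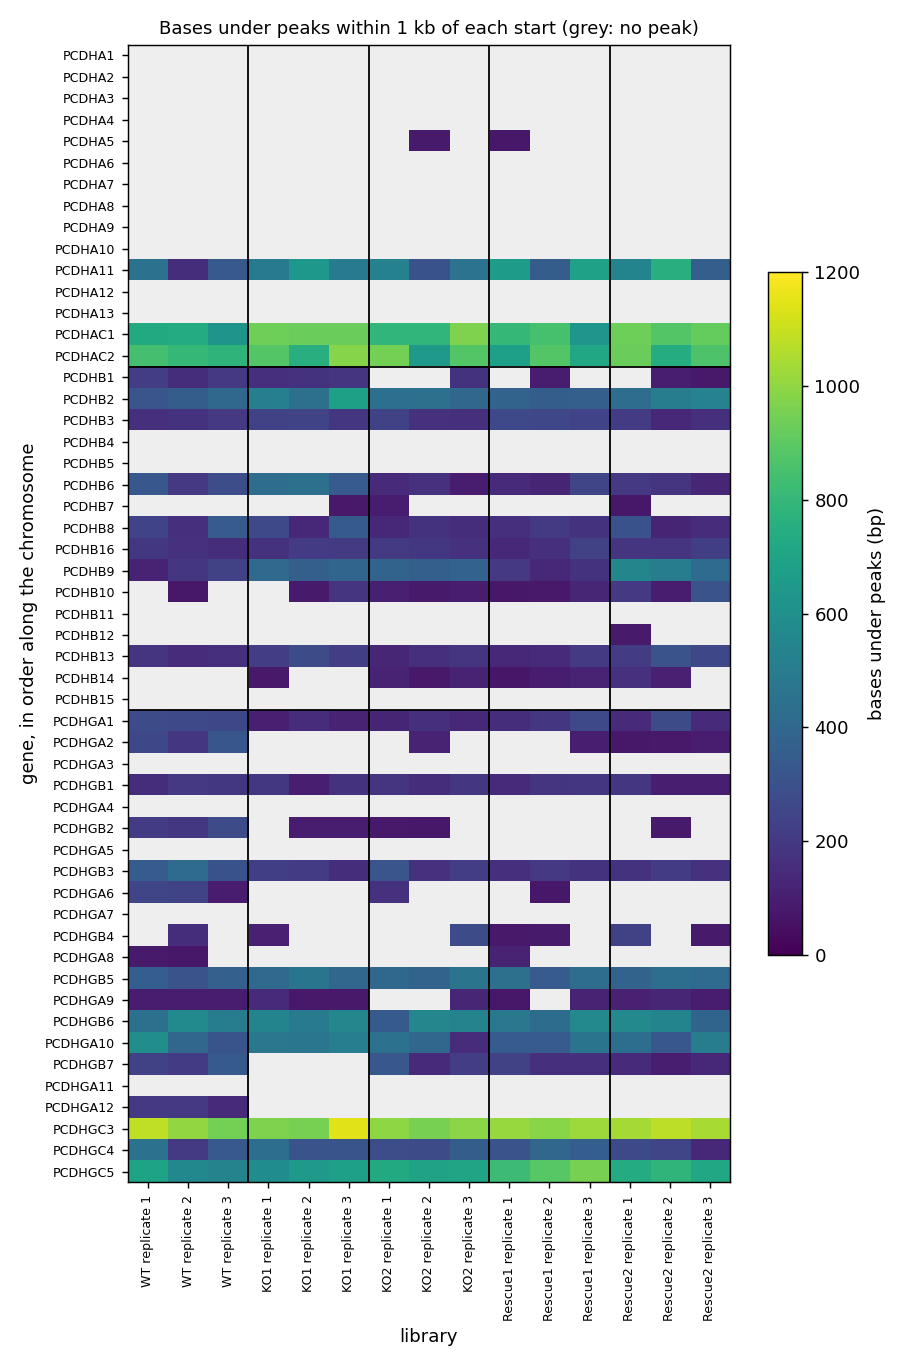
Bases under peaks within 1 kb of the start of each of the 53 genes (rows, in order along the chromosome) in each of the 15 libraries (columns, grouped by black lines), with grey for no peak. The alpha rows are mostly grey down to PCDHA11, and PCDHGA12 is filled in the 3 WT libraries and grey in the other 12.

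Peak calls at these promoters also varied between libraries of 1 group. Within groups, pairs of libraries differed at a mean of 3.77% (WT) to 10.1% (KO2) of the 53 promoters, against 2.03% to 2.58% of all promoters. Between groups the mean was 7.97% (KO2 and Rescue1) to 14.0% (WT and KO2, WT and Rescue1), against 3.07% to 4.73% of all promoters. Pairs share libraries, so these shares are a description.

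In the alpha cluster the same 3 promoters carried peaks in all groups. They were PCDHA11 and the C-type genes PCDHAC1 and PCDHAC2. The promoter of PCDHAC1 had 728, 736 and 623 bp under peaks in the WT libraries, 935, 926 and 924 bp in KO1 and 790, 790 and 968 bp in KO2. All 6 KO libraries lay above all 3 WT libraries. In the rescue libraries it had 801, 853 and 632 bp (Rescue1) and 933, 879 and 916 bp (Rescue2), which overlapped both other groups. PCDHAC2 had 846, 800 and 779 bp in WT, 879, 758 and 981 bp in KO1 and 947, 646 and 880 bp in KO2, and these groups overlapped. In the rescue libraries PCDHAC2 had 679 to 927 bp. PCDHA11 had 159 to 447 bp in WT, 300 to 642 bp in KO and 354 to 758 bp in rescue libraries.

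The remaining alpha gene with any peak was PCDHA5, in 1 KO2 and 1 Rescue1 library (86 and 75 bp). The number of alpha promoters with a peak was 3 in 13 libraries and 4 in those 2. Over the whole alpha cluster the 3 WT libraries had a mean of 2806 ± 288 bp under peaks (SD), the 6 KO libraries 3320 ± 282 bp and the 6 rescue libraries 3458 ± 353 bp. KO minus WT was 514 bp (two-sided exact permutation p = 0.0476, adjusted over 12 tests 0.143), with 5 of 6 KO libraries above all WT libraries. With lists of equal length KO minus WT was 315 bp (exact permutation p = 0.214). Rescue minus KO was 138 bp (exact permutation p = 0.485, adjusted 0.646), and 35.3 bp without KO2 replicate 2, 80.7 bp without Rescue2 replicate 1 and 27.3 bp without Rescue2 replicate 2. Neither passed the test after adjustment.

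In the beta cluster 7 promoters had a peak in every library (PCDHB2, PCDHB3, PCDHB6, PCDHB8, PCDHB16, PCDHB9 and PCDHB13). PCDHB4, PCDHB5, PCDHB11 and PCDHB15 had none in any. Between these, PCDHB10 had a peak in 12 libraries, PCDHB7 in 3 and PCDHB12 in 1. The count per library was 8, 9 and 8 in WT, 9, 9 and 10 in KO1, 10, 9 and 10 in KO2, 9, 10 and 9 in Rescue1 and 11, 10 and 9 in Rescue2. The mean difference of 1.17 promoters between KO and WT did not pass the test (exact permutation p = 0.0952, adjusted 0.190), nor did that of 0.167 between rescue and KO (p = 1 by the exact permutation test). With lists of equal length, or at least 100 bp under peaks, KO minus WT was 0.167 (p = 1 by the exact permutation test).

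**Figure D2:**
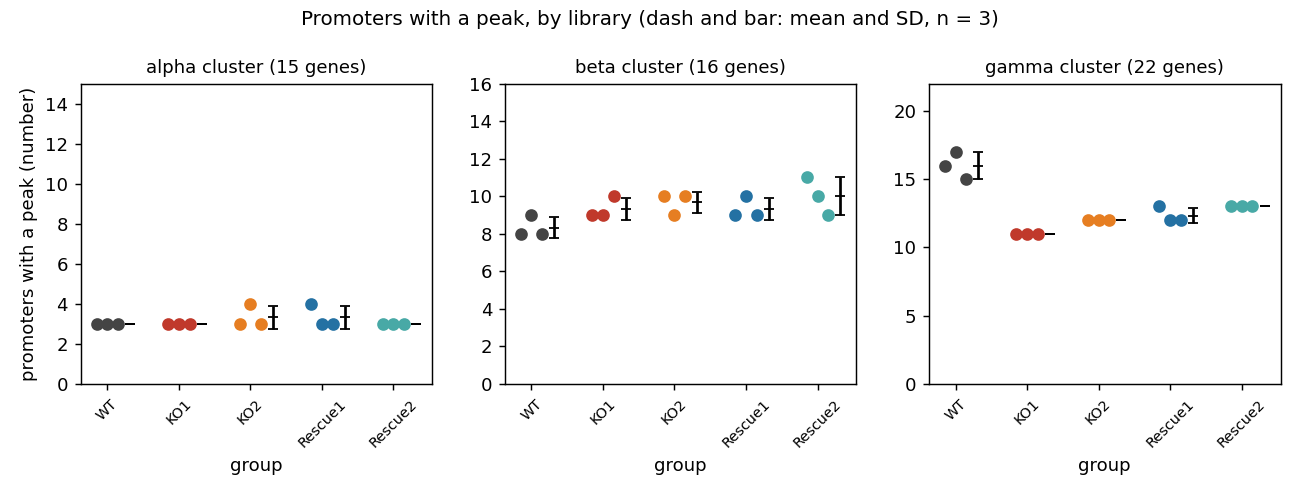
Number of promoters with a peak in each library (points) for the alpha, beta and gamma clusters, with the mean and SD of the 3 libraries of a group beside them. The gamma counts of WT, 15 to 17, lie above those of all other libraries, 11 to 13, while the alpha counts are 3 or 4 throughout.

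PCDHB14 (ENSG00000120327.7) was the beta promoter that met the all-or-none rule, by which every library of 1 group and none of the other has a peak. It had no peak in WT, 81 bp in 1 KO1 library, 113, 81 and 121 bp in KO2, 73, 96 and 114 bp in Rescue1 and 169 and 110 bp in 2 Rescue2 libraries. KO2 and WT thus did not overlap, and 1 of 53 members was called in this direction, against 0.928% of all promoters. The call was lost when peaks were held to a −log10 q of at least 5, which left 2 of 3 KO2 libraries with a peak, and also with lists of equal length or at least 100 bp under peaks. Without WT replicate 2 the count was 2, with PCDHB10 added. PCDHB1, which lies apart from the other beta genes, had 219, 157 and 197 bp in WT and 168, 178 and 185 bp in KO1. It had a peak in 1 KO2 library (174 bp), 1 Rescue1 library (98 bp) and 2 Rescue2 libraries (102 and 84 bp). WT and KO1 were therefore alike in having it in every library, and the KO2 lineage was mixed.

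Bases under peaks over the beta cluster were 2201, 2066 and 2277 in WT, 3159, 3080 and 3651 in KO1, 2654, 2350 and 2550 in KO2, 2480, 2005 and 2387 in Rescue1 and 3298, 3121 and 2903 in Rescue2. All 6 KO libraries lay above all WT libraries, by 726 bp on average (p = 0.0238 by the exact permutation test, which can give no smaller p with 6 against 3 libraries; adjusted 0.0952). Rescue minus KO was -208 bp (exact permutation p = 0.472, adjusted 0.646), and -59.6 bp without KO1 replicate 3, -69.5 bp without Rescue1 replicate 2, -320 bp without KO2 replicate 2 and -328 bp without Rescue2 replicate 1. The clones of each kind were separate, with KO1 above KO2 and Rescue2 above Rescue1 in every library (p = 0.1 for both by the exact permutation test, which can give no smaller p with 3 against 3). Per Mb under peaks in the same library, beta had 52.2 ± 9.05 bp in KO (SD, n = 6) against 42.3 ± 3.46 bp in WT (SD, n = 3), and these overlapped (exact permutation p = 0.119, adjusted over 30 added tests 0.238).

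In the gamma cluster fewer promoters had a peak in every KO and rescue library than in any WT library. The count was 16, 17 and 15 in the WT libraries, 11 in each KO1 library, 12 in each KO2 library, 13, 12 and 12 in Rescue1 and 13 in each Rescue2 library. KO minus WT was -4.5 promoters, with all 6 KO libraries below all 3 WT libraries (exact permutation p = 0.0238, the smallest possible, adjusted over 12 tests 0.0952). Rescue libraries had 1.17 promoters more than KO libraries, with 4 of 6 above every KO library (exact permutation p = 0.0216, adjusted 0.0952), and all 6 lay below every WT library. Neither difference passed the threshold after adjustment. For KO against WT the smallest possible p could pass over 12 tests only if a large share of them reached a p as small. That it did not pass therefore does not show that KO and WT were alike. The KO group includes KO1, from which the rescue lines do not descend by the study's library names. Against KO2 alone, Rescue1 had 0.333 promoters more on average, and the libraries overlapped. Rescue2 had 1 promoter more than KO2 (exact permutation p = 0.1, the smallest possible with 3 against 3 libraries). Rescue minus KO was 0 with lists of equal length (p = 1 by the exact permutation test) and 0.5 with at least 100 bp under peaks (exact permutation p = 0.591). The number of promoters with a peak over all genes was 14825 ± 59.8 over the 3 WT libraries and 14715 ± 136 over the 6 KO libraries (SD; exact permutation p = 0.214, adjusted over 30 added tests 0.357).

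One gamma promoter had a peak in every WT library and in no other library. PCDHGA12 (ENSG00000253159.3, start at chr5:141430507) had 197, 201 and 147 bp under peaks in WT and none in the 12 KO and rescue libraries. Its WT peaks ranked at the 39.2 to 45.3 percentile of peaks in their own libraries by −log10 p, so they were of middling strength. It was the 1 member of 53 lost in KO against WT, where 0.639% of all promoters were lost, and no member was gained, where 0.529% of all promoters were. Fisher's exact test gave 0 promoters of all genes at an adjusted p under 0.05. With 6 against 3 libraries this test can give no p under 0.0119. Adjusted over 20033 promoters, that could pass only if a large share of them reached it. The 0 therefore does not show that promoters were alike. At an unadjusted p under 0.05 it gave 144 with more and 193 with fewer KO libraries, among the latter PCDHGA2, PCDHGA6 and PCDHGA12. The count of lost members was 2 without WT replicate 3 (PCDHGA8 added), without KO2 replicate 1 (PCDHGA6 added) or without KO2 replicate 2 (PCDHGA2 added).

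PCDHGB7 (ENSG00000254122.3, start at chr5:141417677) separated the knockout clones. It had 234, 209 and 339 bp in WT, none in KO1, 326, 146 and 220 bp in KO2, 237, 164 and 166 bp in Rescue1 and 145, 102 and 133 bp in Rescue2. KO2 and its rescue lines thus had the peak in every library, and KO1 in none. The strongest peak ranked at the 81.2 to 89.0 percentile in WT, the 55.7 to 70.7 percentile in KO2 and the 28.1 to 63.6 percentile in rescue libraries. Between KO1 and KO2 it was the 1 member found in KO2 only, against 0.629% of all promoters, and no member was found in KO1 only, against 0.235%. The first count was 2 without KO1 replicate 1 (PCDHB14 added), and the other was 2 without KO2 replicate 3 (PCDHB1 and PCDHGA9). Its neighbour PCDHGB6, shown above for the likeness of its sequence, had 338 to 570 bp in all 15 libraries.

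PCDHGA2 (ENSG00000081853.15) had 260, 192 and 320 bp in WT, none in KO1, 121 bp in 1 KO2 library, 100 bp in 1 Rescue1 library and 76, 83 and 91 bp in Rescue2. PCDHGA6 (ENSG00000253731.3) had 252, 245 and 90 bp in WT, none in KO1, 171 bp in 1 KO2 library, 78 bp in 1 Rescue1 library and none in Rescue2. Both were thus present in all WT libraries, absent from KO1 and mixed in the KO2 lineage. With PCDHGB7 and PCDHGA12 they made 4 members lost in KO1 against WT, or 7.55% of 53, against 1.30% of all promoters. No member was gained in KO1, against 0.799%. In KO2 against WT PCDHGA12 was the 1 member lost, against 0.983%. That count was 2 without WT replicate 3, KO2 replicate 1 or KO2 replicate 2, and 3 without KO2 replicate 3.

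**Figure D3:**
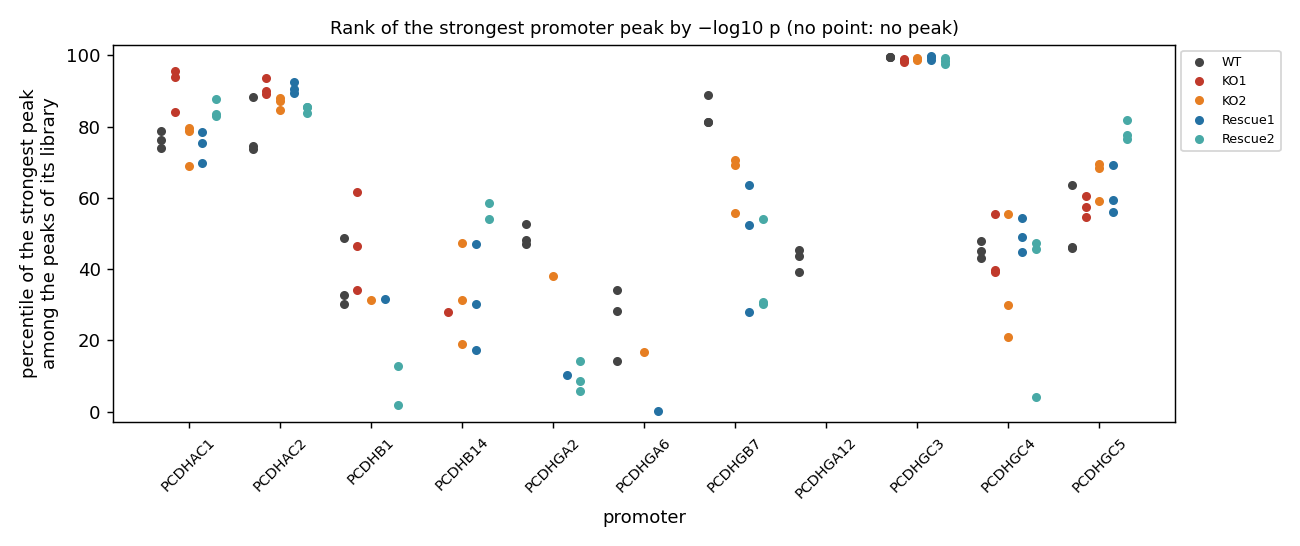
Percentile, by −log10 p, of the strongest promoter peak among all peaks of its library (points, 1 per library) for the C-type genes, PCDHB1 and the promoters called between groups, coloured by group. PCDHGC3 lies at or above the 97.7 percentile in every library, PCDHGB7 is highest in WT and missing in KO1, and PCDHGA12 appears in WT alone.

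The rescue lines were also set against KO2. No member was gained in Rescue1, against 0.454% of all promoters, or lost in it, against 0.784%. None was gained in Rescue2, against 0.464%, or lost in it, against 0.609%. Between Rescue1 and Rescue2 no member was called in either direction, against 0.235% and 0.404%. Single libraries moved 3 of these counts from 0 to 1, with PCDHGA2 or PCDHGA9 gained in Rescue2 without KO2 replicate 2 or 3, PCDHGB2 lost in Rescue1 without KO2 replicate 3 and PCDHGA2 found in Rescue2 only without Rescue1 replicate 3. In rescue against KO as pooled groups no member was gained, against 0.175%, and none lost, against 0.205%. Fisher's exact test gave 0 promoters of all genes at an adjusted p under 0.05 in this comparison and 81 with more and 113 with fewer rescue libraries at an unadjusted p under 0.05, with no member among them.

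To ask whether isoform promoters were set per clone, promoters were counted at which the 3 libraries of every group gave the same call and the groups gave different ones. PCDHGB7 and PCDHGA12 met this rule. They were 2 of 53 members, or 3.77%, against 1.57% of all promoters. With lists of equal length the 2 were PCDHGB2 and PCDHGA12, and with at least 100 bp under peaks PCDHGB2 was added to the first pair. The other 12 variable members differed between libraries of at least 1 group. Of the first pair, PCDHGA12 differed only between WT and the other groups, and PCDHGB7 also differed between KO1 and KO2. The share of 3.77% therefore does not measure choice per clone alone.

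The length of promoter under peaks was compared next, a measure added after the lists had been examined. All KO libraries lay below all WT libraries at PCDHGA1, PCDHGA2, PCDHGB2 and PCDHGA12, or 4 of 53 members (7.55%), against 7.60% of all promoters, a share near the background. PCDHGA1 had 275, 265 and 261 bp in WT, 106, 150 and 116 bp in KO1 and 122, 160 and 136 bp in KO2, and 141 to 275 bp in rescue libraries. PCDHGB2 had 212, 193 and 274 bp in WT, 0, 97 and 92 bp in KO1, 82, 76 and 0 bp in KO2, none in Rescue1 and 87 bp in 1 Rescue2 library. All KO libraries lay above all WT libraries at PCDHAC1, PCDHB9 and PCDHGB5, or 3 members (5.66%), against 3.20% of all promoters. PCDHB9 had 115, 191 and 231 bp in WT, 364 to 410 bp in KO, 133 to 200 bp in Rescue1 and 420 to 552 bp in Rescue2. The rescue clones thus stood on either side of KO at this promoter. No member had all rescue libraries above all KO libraries, against 3.11%, or below them, against 1.57%.

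The C-type gamma genes had promoter peaks in every library. PCDHGC3 had more bases under peaks than any other gamma promoter in each library, with 1084, 1005 and 950 bp in WT, 967, 955 and 1148 bp in KO1, 998, 954 and 992 bp in KO2, 1016, 986 and 1026 bp in Rescue1 and 1037, 1080 and 1044 bp in Rescue2. PCDHGC4 had 205 to 451 bp in WT, 274 to 432 bp in KO and 134 to 397 bp in rescue libraries. PCDHGC5 had 695, 562 and 535 bp in WT, 584, 649 and 677 bp in KO1, 727, 692 and 703 bp in KO2, 822, 889 and 953 bp in Rescue1 and 737, 783 and 713 bp in Rescue2. Groups overlapped at all 3 genes in KO against WT and in rescue against KO. With the C-type genes of both clusters left out, a choice made after the data were seen, the gamma difference between KO and WT was the same, -4.5 promoters.

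Other gamma promoters with a peak in every library were PCDHGB1, PCDHGB3, PCDHGB5, PCDHGB6 and PCDHGA10, with 100 to 593 bp. PCDHGA3, PCDHGA4, PCDHGA5, PCDHGA7 and PCDHGA11 had a peak in none. PCDHGA8 had a peak in 2 WT and 1 Rescue1 library. PCDHGA9 had one in 12 libraries and PCDHGB4 in 7.

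Over the whole gamma cluster the 3 WT libraries had 6971 ± 571 bp under peaks (SD), the 6 KO libraries 6367 ± 257 bp and the 6 rescue libraries 6513 ± 311 bp. Neither KO against WT (exact permutation p = 0.0714, adjusted 0.171) nor rescue against KO (exact permutation p = 0.390, adjusted 0.646) passed the test. KO minus WT was -604 bp, and -283 bp without WT replicate 1. Rescue minus KO was 146 bp, and 68.2 bp without KO2 replicate 2, 60.6 bp without Rescue1 replicate 3 and 92.8 bp without Rescue2 replicate 1. Per Mb under peaks in the same library, gamma had 134.8 ± 2.78 bp in WT and 114.1 ± 6.06 bp in KO, with all 6 KO libraries below WT (exact permutation p = 0.0238, adjusted over 30 added tests 0.102). Split after the lists had been examined, bases inside promoters were 5208 ± 354 in WT (SD, n = 3) and 4078 ± 166 in KO (SD, n = 6), with all 6 KO libraries below WT (exact permutation p = 0.0238, adjusted 0.102). Bases outside promoters were 1762 ± 227 in WT and 2289 ± 172 in KO, with all 6 KO libraries above WT (exact permutation p = 0.0238, adjusted 0.102). The cluster total therefore combined parts that differed in opposite directions. The difference outside promoters was uneven. Mean bases in WT and KO were 149 and 428 at chr5:141334268-141334838 in PCDHGA1, and 0 and 309 at chr5:141507813-141508212 in PCDHGC3. They were 854 and 963 at chr5:141508472-141509628. KO was lower at chr5:141465373-141465758 (317 and 224), chr5:141503704-141504103 (338 and 285) and chr5:141411513-141411829 (104 and 66.5). In the alpha cluster KO had more bases than WT inside promoters, 2238 against 1818 (exact permutation p = 0.0476, adjusted 0.159), and 1082 against 988 outside them (exact permutation p = 0.262, adjusted 0.406). In the beta cluster the values were 2187 against 1747 inside (exact permutation p = 0.0714, adjusted 0.195) and 721 against 434 outside (exact permutation p = 0.0476, adjusted 0.159). Rescue libraries had 4270 ± 260 bp inside and 2244 ± 141 bp outside the gamma promoters (SD, n = 6), and neither difference from KO passed the test (exact permutation p = 0.156 and 0.619). The share of all bases under peaks that lay on chromosome 5 was 5.50% in WT, 5.71% in KO and 5.56% in rescue libraries. All 6 KO libraries lay above WT (exact permutation p = 0.0238, adjusted 0.102). All 6 rescue libraries lay below KO (exact permutation p = 0.00216, adjusted 0.0649). The part of this share in the values above was not tested. Within 1 Mb on either side of the locus KO and WT had 80762 ± 5225 (SD, n = 6) and 83743 ± 6809 bp (SD, n = 3; exact permutation p = 0.452, adjusted 0.617). Rescue libraries had more there than KO, 91413.5 ± 6720 bp (SD, n = 6; exact permutation p = 0.0152, adjusted 0.102).

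**Figure D4:**
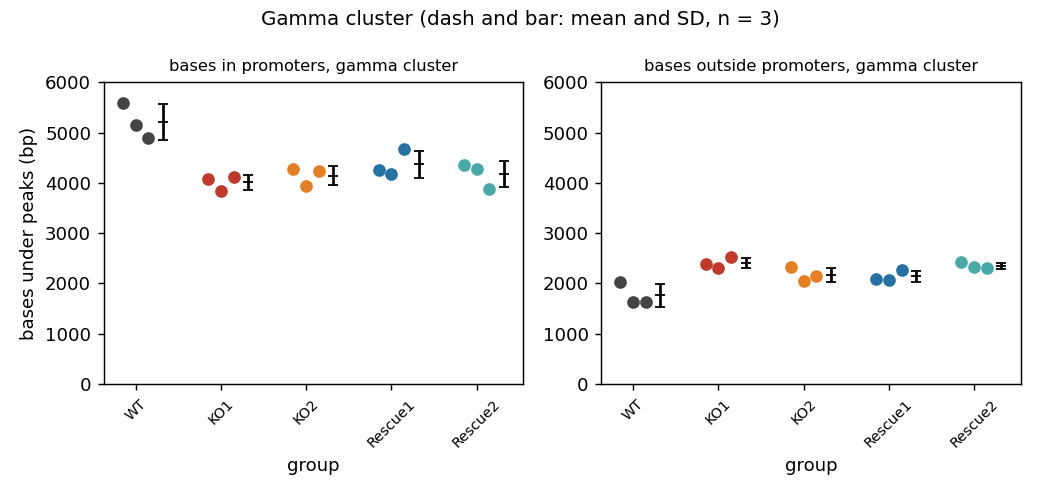
Bases under peaks inside (left) and outside (right) the gamma promoters in each library (points), with the mean and SD of each group of 3. The 3 WT libraries lie above the other 12 on the left and below them on the right.

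Peaks of all libraries were also merged into regions held by at least 2 libraries, which gave 62 regions over the locus of 295008 in the genome. Of the 62, 27 had a peak in all 15 libraries. In KO against WT 1 was gained, or 1.61%, against 4.79% of all regions, and 2 were lost, or 3.23%, against 2.48%. In rescue against KO none was gained, against 0.910%, and none lost, against 1.24%. The gained region (chr5:141507813-141508212) lies over an exon of PCDHGC3 near the end of the gamma cluster. It had no bases under peaks in WT, 263, 374 and 335 bp in KO1, 315, 244 and 324 bp in KO2, 276, 303 and 284 bp in Rescue1 and 280, 306 and 270 bp in Rescue2. Every KO and rescue library thus had it and no WT library did. The lost regions lay over exons at PCDHGA6 (chr5:141374055-141374171) and PCDHGA12 (chr5:141430421-141430628). The PCDHGA6 region had 117, 105 and 90 bp in WT and none elsewhere, so the promoter peaks of PCDHGA6 in 1 KO2 and 1 Rescue1 library lay outside it. With the PCDHGB7 region (chr5:141417543-141417937) these made 4 regions at which the 3 libraries of each group gave the same call and the groups gave different ones, or 6.45%, against 8.07% of all regions.

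**Figure D5:**
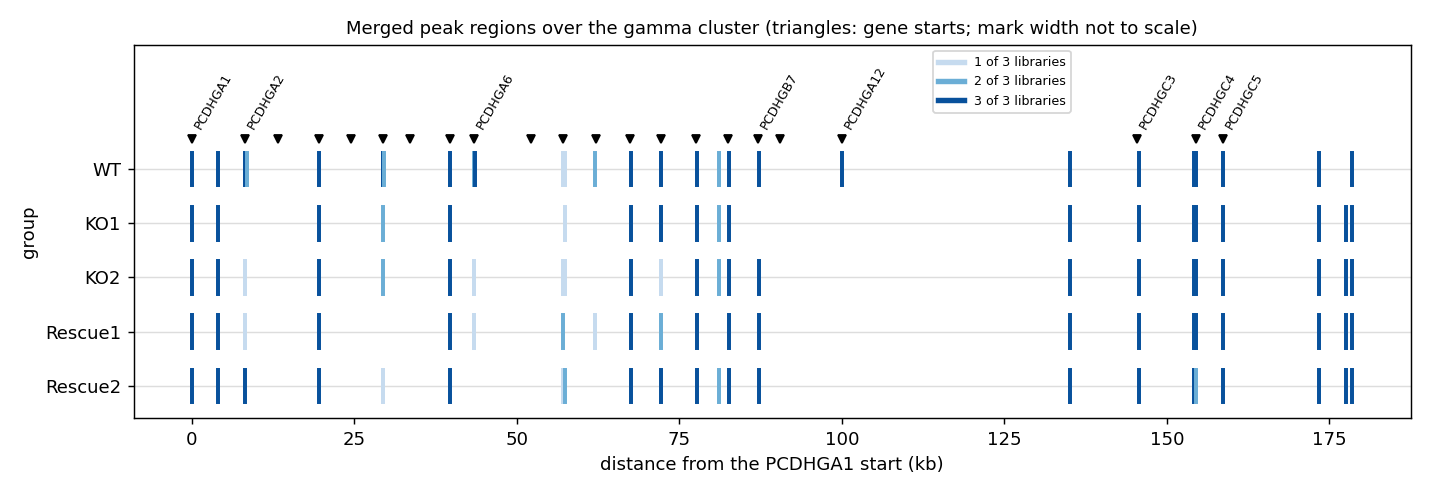
Merged peak regions over the gamma cluster in each group, placed by distance from the PCDHGA1 start in kb, with darker marks for more of the 3 libraries of a group and triangles at gene starts. The mark at PCDHGA12 appears in WT alone, that at PCDHGB7 is missing in KO1, and a mark near the right end is missing in WT.

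Genes known to act on these clusters, among them CTCF, the cohesin subunits RAD21, SMC1A and SMC3, the cohesin loader NIPBL, the release factor WAPL and the silencers SMCHD1, SETDB1 and DNMT3B, had a promoter peak in all libraries at 16 of 16. None was called in either comparison, against at most 0.639% of all promoters in any direction. Of 13 protocadherins outside the clusters, 9 had a promoter peak in all libraries, PCDH8 had none in any, and none was called. Marker genes of other cell types were counted beside these values. Of 7 neuronal markers 3 had a peak in all libraries, RBFOX3 had none, and ELAVL4 was lost in rescue against KO, against 0.205% of all promoters. ELAVL4 had a peak in 1 of 3 WT libraries. Of 7 fibroblast and mesenchymal markers 5 had a peak in all libraries, with 6 in each WT, 7 in each KO and 5 or 6 in each rescue library. DCN was gained in KO, against 0.529% of all promoters. Of 4 endothelial markers CDH5 and KDR had a peak in all libraries and PECAM1 and TEK in none, and none of 4 blood markers had one in any. The epithelial cadherin CDH1 had a promoter peak in 3 WT libraries, 1 KO2 library and no KO1 or rescue library. The part of these in the gamma counts was not tested.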

How the data were processed

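ATAC-seq, in which the Tn5 transposase tags accessible DNA, was run on 15 RPTEC libraries. The authors aligned reads to hg38 with BWA (0.7.17 in the submitters' processing notes; the study's methods give another version) and called peaks in each library separately with MACS2 2.2.7.1. The lists deposited by the authors give each peak's interval with its −log10 p-value and −log10 q-value, which served here to rank peaks inside 1 library and to filter them. Removal of duplicate reads, read shifting and filters on multiply mapped reads are not given in the sources used here. Their effect on which peaks were called was not tested. The study's DiffBind 2.14.0 comparison of reads was not used here.

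All 99 contigs of the lists were found in the reference. Starts were those of the canonical GENCODE v44 transcripts. A promoter reached 1000 bp on either side. KO (KO1 and KO2, 6 libraries) was compared with WT (3), and rescue (Rescue1 and Rescue2, 6) with KO. The clones were pooled by choice here. The 6 measures (promoters with a peak and bases under peaks in each cluster) were compared by permuting library labels exactly (exact permutation test), two-sided by doubling the smaller tail, with Benjamini-Hochberg adjustment over 12 tests. A further 30 tests, on bases inside and outside promoters, bases per Mb under peaks, flanks and totals, were added after the data were seen and adjusted among themselves. The all-or-none rule and Fisher's exact test were applied to all 20033 promoters. The members and lists were chosen with earlier results of these data known. Genes named with values are those called in any of 8 comparisons or variable by clone, the C-type genes and PCDHB1. PCDHA5, PCDHA11, PCDHB9, PCDHGA1, PCDHGB2, PCDHGB5, PCDHGB6 and the other members given by values were named after these were seen, as was CDH1. Libraries held 197527 to 266011 peaks. No 2 libraries held the same list, and the most alike pair shared 258 identical intervals. Read depth is unknown, so no counting interval was computed. Alternatives were a stricter threshold (−log10 q of at least 5), the 150000 strongest peaks of each library, promoters of 500 bp, the gene's 5′ end as start, at least 100 bp under peaks, single clones, scaling to bases under peaks, regions of at least 3 libraries, a replicate block and leaving out each library. Scripts were tested on simulated data. Python 3.11.15, numpy 2.4.6, pandas 2.3.3 and scipy 1.17.1 were used.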

Additional observations from a re-analysis of the deposited data

Results flagged for a closer look

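In the alpha cluster KO2 replicate 2 had 4 promoters with a peak where the other 5 KO libraries had 3, and Rescue1 replicate 1 had 4 where the other 5 rescue libraries had 3. Each lay far from the rest of its group, because of a PCDHA5 peak. The count was 3 or 4 in every library, so any single library with 1 promoter more than the others would stand out in this way. A library that far out was looked for in 12 sets of 6 libraries. The usual chance of about 1 in 20 holds for values without ties and does not apply to this count. Outside the protein-coding genes, the start of the pseudogene PCDHB18P had a peak in 4 KO and rescue libraries (105 and 164 bp in 2 KO1, 255 bp in 1 Rescue1 and 92 bp in 1 Rescue2 library) and in no WT library. Pseudogenes entered no comparison above.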

How the results depend on the processing

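No difference between groups passed the adjusted threshold in the 12 tests or under any alternative run. Some of the alternatives could not have passed. For single clones the exact permutation test can give no p under 0.1. In KO against WT it can give none under 0.0714 with a WT library left out. With a replicate block the smallest possible p in KO against WT also lay above the threshold. That these runs did not pass therefore shows nothing about the differences. Leaving out 1 library, the gamma count in KO against WT ranged from -5 to -4. With a stricter threshold rescue minus KO for beta promoters was -0.5, members lost in KO2 against WT were 3 and regions lost in KO were 1. With lists of equal length that beta value was -0.667 and rescue minus KO for gamma bases was -98.7. There members lost were 2 in KO and 4 in KO2 against WT, gained in KO2 0, gained in KO1 against KO2 1, lost in Rescue2 against KO2 1 and gained in Rescue1 against Rescue2 1. With at least 100 bp under peaks 2 were lost in KO, and in KO2 0 were gained and 2 lost. Rescue1 alone against KO2 gave -0.333 beta promoters, and Rescue2 alone 589 more beta bases. Per Mb under peaks rescue minus KO was -0.0805 for alpha and -1.94 for gamma. Without single libraries the beta promoter difference between rescue and KO ranged from -0.1 to 0.3. Over the same settings members lost in KO against WT ranged from 1 to 2, in KO2 against WT gained from 1 to 2 and lost from 1 to 3, in KO1 against KO2 gained from 0 to 2 and lost from 1 to 2, lost in Rescue1 against KO2 and in Rescue1 against Rescue2 from 0 to 1 and gained in Rescue2 against KO2 from 0 to 1. The causes were not tested. The calls of PCDHGA6 and PCDHB14 were lost with a stricter threshold, equal lists or 100 bp.

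Replicate numbers did not pair the libraries. Correlations of same-numbered libraries ran from -0.184 to 0.245, with 3 of 30 over 0.1. Those of differently numbered libraries ran from -0.378 to 0.313, with 6 of 60 over 0.1. With a replicate block the gamma promoter difference between KO and WT was -4.5 (exact permutation p = 0.0741, the smallest possible there, adjusted 0.222), and no call changed. The all-or-none rule misses promoters where 1 library fell short of the threshold, and read depth behind a missing peak is unknown.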
